A study of Mus musculus with 16 samples.

Results

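Collagen VI and 7 other genes for collagens that do not form the classical striated fibrils were described in cultured mouse cardiac fibroblasts: Col6a1, Col6a2, Col6a3, Col8a1, Col8a2, Col12a1, Col14a1, Col15a1, Col16a1 and Col18a1. These 10 genes were taken as a named list, mapped by symbol to 10 of the 55414 Ensembl identifiers of the deposited count table. The genes were chosen by name, not by a threshold on a measured value, but with the fold changes and levels of an earlier analysis of these data in view, so each level, fold change and p-value below is a description of these genes. RNA-seq libraries in 4 groups of 4 were compared: cells given a Cre adenovirus with transforming growth factor beta (TGF-beta), cells given a green fluorescent protein (GFP) adenovirus with TGF-beta, cells given Cre virus alone, and cells given GFP virus alone. Per the labels, Cre virus removes exon 2 of Has2, the gene of a hyaluronan synthase. The treatment protocol gives the cells as Has2fl/fl, whereas the genotype field reads wild type C57BL/6J, and the age of the mice is not given in the sources used here. Cells were used at passage 2, starved of serum for 24 h, exposed to virus for 5 h and then stimulated for 48 h. The protocol names basic fibroblast growth factor and TGF-beta together, at 20 ng/mL, so whether the cells without TGF-beta also received the first factor is not stated. Libraries with the same replicate number also share a code in their library names and the sex field, and are called a preparation here; preparations 1 and 4 are labelled male, and 2 and 3 female.

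Collagens are triple-helical proteins of the extracellular matrix. Collagen VI is built from an α1, an α2 and an α3 chain and assembles into beaded microfilaments around cells, where it links to basement membranes. Collagen VIII, built from the chains of Col8a1 and Col8a2, is a short-chain collagen that forms networks. Collagens XII, XIV and XVI are fibril-associated collagens with interrupted triple helices, which sit on or between fibrils of other collagens. Collagens XV and XVIII are proteoglycan-bearing collagens of basement membrane zones, and the C-terminal part of collagen XVIII can be released as endostatin. TGF-beta is known for turning cardiac fibroblasts into contractile, matrix-producing myofibroblasts.

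The upstream sequences of the 3 collagen VI genes are shown because the chains of Col6a1 and Col6a2 moved together in the counts while Col6a3 moved less. Each run is the 250 bases before a transcription start in RefSeq (build GRCm38.p6), 5′ to 3′ on the gene's strand, which is the minus strand for each. The windows are chr10:76726045-76726294 for Col6a1, chr10:76623631-76623880 for Col6a2, which has another annotated start as well, and chr1:90843972-90844221 for Col6a3. Capitals mark matches, on either strand, to 6 motifs. The motifs searched were CAGAC, known as a SMAD half-site, and GGGCGG, which is the core of the GC box. The search also covered CCAAT, named for its own letters, and TATAAA, the usual form of the TATA box. The remaining motifs were GGAATG, which TEAD factors bind, and TGANTCA, which AP-1 factors bind.
Col6a1: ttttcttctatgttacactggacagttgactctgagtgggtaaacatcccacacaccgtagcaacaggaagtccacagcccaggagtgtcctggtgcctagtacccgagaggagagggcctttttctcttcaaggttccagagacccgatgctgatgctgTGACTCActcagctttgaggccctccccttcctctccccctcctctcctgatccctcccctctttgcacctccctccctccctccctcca
Col6a2: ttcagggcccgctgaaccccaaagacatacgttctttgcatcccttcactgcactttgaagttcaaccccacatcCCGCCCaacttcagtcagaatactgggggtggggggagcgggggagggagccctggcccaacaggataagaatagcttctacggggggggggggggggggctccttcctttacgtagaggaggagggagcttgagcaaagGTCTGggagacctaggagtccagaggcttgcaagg
Col6a3: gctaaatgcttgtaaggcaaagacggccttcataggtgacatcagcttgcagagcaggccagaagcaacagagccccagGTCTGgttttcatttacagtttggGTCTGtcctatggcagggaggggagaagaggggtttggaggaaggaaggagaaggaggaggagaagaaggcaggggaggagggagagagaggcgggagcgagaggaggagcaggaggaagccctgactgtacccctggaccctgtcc
The Col6a1 window holds 1 match, to TGANTCA, which 6.75% of 32851 mouse promoter windows of the same length also hold. The Col6a2 window holds 1 match to CAGAC and 1 to GGGCGG, present in 42.2% and 32.7% of all windows. The Col6a3 window holds 2 matches to CAGAC. No motif was found in both the Col6a1 window and the printed Col6a2 window. The window of the other Col6a2 start, chr10:76623405-76623654, is not printed. It holds 3 matches to GGGCGG and 1 to GGAATG, present in 32.7% and 12.6% of all windows, and none to TGANTCA. A match describes letters only, and binding was not measured.

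Total counts were 17858263 to 48748487 per library, and all 10 genes passed the filter on low counts, as did 15285 genes in all. Acta2, the smooth muscle actin that marks myofibroblasts, averaged 2204 ± 488 CPM under Cre virus with TGF-beta and 2244 ± 576 in GFP cells with TGF-beta, against 310.3 ± 62.7 in Cre cells and 328 ± 63.4 in GFP cells (SD, n = 4 each; CPM, per-million counts of the normalised library total). Has2, the target of the virus, averaged 16.5 ± 6.31 CPM under Cre virus with TGF-beta, 16.8 ± 5.67 in GFP cells with TGF-beta, 14.7 ± 1.38 in Cre cells and 18.7 ± 3.27 in GFP cells. These are counts over the whole gene, so loss of exon 2 could not be read from them. Summed over 8 fibroblast markers, levels were 5618 to 6226 CPM in the libraries with TGF-beta and 7728 to 9311 CPM in those without, led by Vim in each group. In both kinds of cell 6 of the 8 were called lower with TGF-beta (Dcn, Ddr2, Pdgfra, Thy1, Lum, Tcf21), and the median log2 change of the 8 was -1.45 in Cre cells and -1.49 in GFP cells. Of all genes tested, 16.3% were called lower in Cre cells and 15.3% in GFP cells. Markers of other cells were present as well: 10 endothelial markers summed to 20.6 to 32.5 CPM with TGF-beta and 38.3 to 53.7 CPM without. The 10 macrophage markers summed to 431 to 1091 CPM with TGF-beta and 664 to 1754 CPM without, and 8 pericyte and smooth muscle markers to 78.0 to 185 CPM with TGF-beta and 95.2 to 219.7 CPM without. Preparation 4 stood apart from the others for these collagens in every group, and values without it are given after the comparisons. In bulk RNA, fewer cells of a type and less RNA per cell cannot be told apart, and the part of other cells in the results below was not tested.

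With TGF-beta, transcripts of both Col6a1 and Col6a2, of Col14a1 and of Col18a1 fell in Cre and in GFP cells, by between 4.45- and 11.2-fold. Col12a1 rose 3.88-fold in Cre cells and stood 3.82-fold higher in GFP cells, where it just missed the threshold (edgeR adjusted p = 0.0513). Col16a1 rose 1.30-fold in GFP cells and stood 1.26-fold higher in Cre cells, where it was not called (adjusted p = 0.0682). Neither response was called as different between Cre and GFP cells in the interaction test given further on. In Cre cells 1 of the 10 genes was higher and 4 were lower at an adjusted p under 0.05 (edgeR quasi-likelihood test, Benjamini-Hochberg over all genes tested), where 30.3% of all genes tested were called, 14% higher and 16.3% lower. In GFP cells 1 was higher and 4 were lower, where 29.1% of all genes were called, 13.8% higher and 15.3% lower. When the preparation was added as a block, all 10 genes were called in both kinds of cell, 4 higher (Col8a1, Col8a2, Col12a1, Col16a1) and 6 lower. In that fit 52.5% of all genes were called in Cre cells (25.2% higher, 27.3% lower) and 49.1% in GFP cells (22.6% higher, 26.5% lower). The median log2 fold change of the 10 genes was -0.958 in Cre cells and -1.003 in GFP cells, beside 0.02 and -0.02 over all genes tested. The 4 libraries with TGF-beta lay wholly below the 4 without for Col6a1, Col6a2, Col14a1 and Col18a1 in both kinds of cell, and wholly above for Col16a1 in Cre cells. Such a separation was seen for 28.3% of all tested genes in Cre cells and 29.8% in GFP cells.

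**Figure D1:**
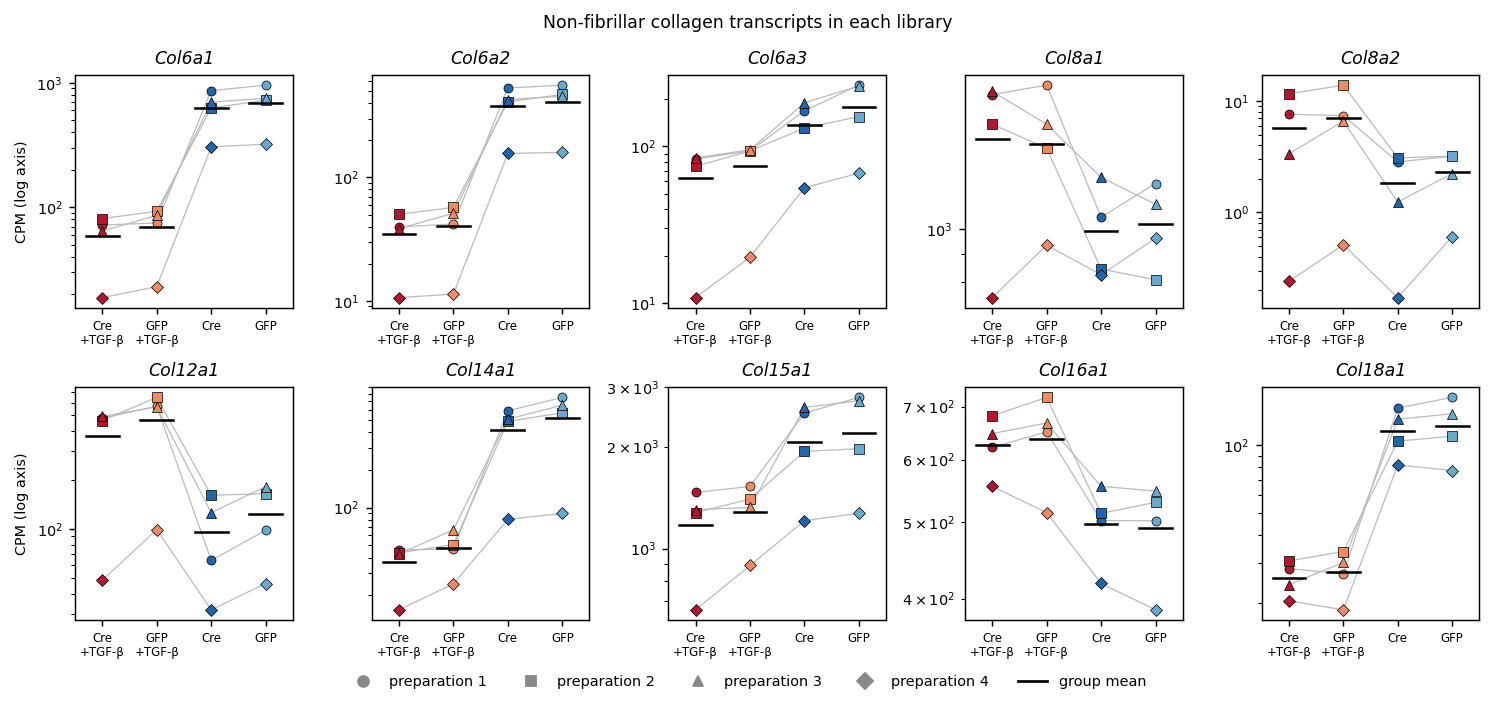
CPM of each gene on a log axis in each of the 16 libraries; symbols are preparations, grey lines join libraries of 1 preparation and black bars are group means. Col6a1, Col6a2, Col14a1 and Col18a1 are lower in every library with TGF-beta, and preparation 4 (diamonds) is the lowest point in 39 of 40 gene and group combinations.

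Col6a1 (ENSMUSG00000001119), the α1 chain, had 72.1, 81.2, 64.7 and 18.9 CPM in preparations 1 to 4 of Cre cells with TGF-beta, against 864, 627, 701 and 306 CPM in Cre cells without it. In GFP cells it had 74.9, 93.0, 86.1 and 23.1 CPM with TGF-beta, against 957, 725, 751 and 321 CPM without. The lowest library without TGF-beta was thus above the highest with it, although preparation 4 was low in each group. The log2 fold change was -3.40 ± 0.52 (SE) in Cre cells (edgeR adjusted p = 0.000179) and -3.31 ± 0.52 in GFP cells (adjusted p = 0.000224), a 10.5-fold and a 9.94-fold lower level. Col6a2 (ENSMUSG00000020241), the α2 chain, had 39.7, 50.3, 38.5 and 10.6 CPM in Cre cells with TGF-beta, against 532, 409.5, 428 and 157 CPM in Cre cells without. In GFP cells Col6a2 had 41.9, 57.2, 51.2 and 11.3 CPM with TGF-beta, against 560.3, 471, 456 and 159.6 CPM without. Again the groups did not overlap, and the fall was 10.96-fold in Cre cells and 10.2-fold in GFP cells (log2 -3.46 ± 0.58, edgeR adjusted p = 0.000386, and -3.35 ± 0.58, adjusted p = 0.000496).

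Col6a3 (ENSMUSG00000048126), the large α3 chain, differed from its partners. It had 83.0, 74.6, 84.4 and 10.9 CPM in Cre cells with TGF-beta, against 168, 131, 189 and 54.5 CPM without. GFP cells had 93.6, 93.4, 95.02 and 19.7 CPM with TGF-beta, against 245, 155, 242 and 67.5 CPM without. The groups overlapped through preparation 4, whose libraries without TGF-beta lay below the first 3 preparations with it. Within each of the 4 preparations, Col6a3 was nevertheless lower with TGF-beta than without it. Without the block the change was not called (log2 -1.10 ± 0.60 in Cre cells, edgeR adjusted p = 0.179, and -1.23 ± 0.60 in GFP cells, adjusted p = 0.142). With the preparation as a block it was -1.28 ± 0.20 in Cre cells (adjusted p = 0.00014) and -1.31 ± 0.20 in GFP cells (adjusted p = 0.000121).

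The ratio between the collagen VI chains, taken on CPM per kilobase of the principal annotated transcript, shows this split. The ratio of Col6a2 to Col6a1 was 0.604 ± 0.0323 in Cre cells with TGF-beta and 0.587 ± 0.0568 in GFP cells with TGF-beta, against 0.621 ± 0.0627 in Cre cells and 0.607 ± 0.0672 in GFP cells (SD, n = 4 each). The 4 ranges overlapped throughout, from 0.509 to 0.678 over all libraries. The ratio of Col6a3 to Col6a1 was 0.263 to 0.594 in Cre cells with TGF-beta and 0.388 to 0.570 in GFP cells with TGF-beta. Without TGF-beta that ratio was 0.0810 to 0.123 in Cre cells and 0.0957 to 0.147 in GFP cells, with no overlap. The level of the Col6a2 ratio depends on the length used: on merged exons it was 0.297 to 0.314 in the group means, as the merged exons of Col6a2 span 8326 bases and its principal transcript 3949. The 3 chains together took 0.0151% and 0.0173% of the counts in Cre and GFP cells with TGF-beta, against 0.117% and 0.129% in Cre and GFP cells without it.

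**Figure D2:**
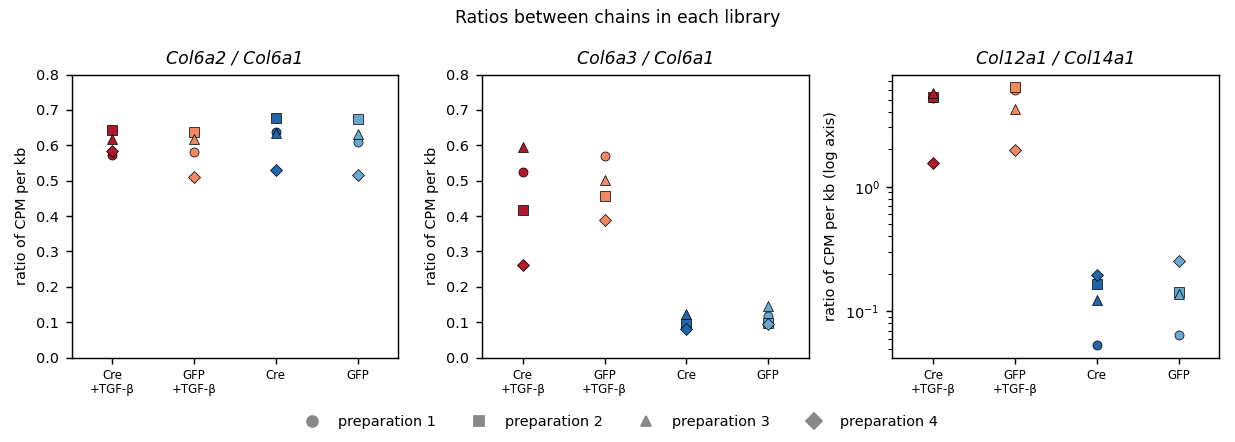
Ratios of CPM per kilobase between chains in each library, by group and preparation (the right panel has a log axis). Col6a2 to Col6a1 stays between 0.509 and 0.678, while Col6a3 to Col6a1 and Col12a1 to Col14a1 are higher in every library with TGF-beta than in any without.

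Of the collagen VIII chains, Col8a1 (ENSMUSG00000068196) was abundant. It had 1770.0, 1561, 1794 and 749 CPM in Cre cells with TGF-beta, against 1053, 845, 1246 and 825 CPM without. GFP cells had 1843, 1409.8, 1561 and 935 CPM with TGF-beta, against 1214, 808, 1112 and 963 CPM without. Preparations 1 to 3 were higher with TGF-beta in both kinds of cell and preparation 4 was not, so the groups overlapped. The unblocked change was not called (log2 0.57 ± 0.26 in Cre cells, edgeR adjusted p = 0.11, and 0.49 ± 0.26 in GFP cells, adjusted p = 0.172), and the blocked one was (0.52 ± 0.16 in Cre cells, adjusted p = 0.0153, and 0.45 ± 0.16 in GFP cells, adjusted p = 0.0338). Col8a2 (ENSMUSG00000056174) was the rarest of the 10 genes, with 6 to 517 counts a library. It had 7.62, 11.6, 3.36 and 0.240 CPM in Cre cells and 7.41, 13.9, 6.61 and 0.511 CPM in GFP cells with TGF-beta. Without TGF-beta it had 2.85, 3.09, 1.24 and 0.172 CPM in Cre cells and 3.19, 3.20, 2.23 and 0.608 CPM in GFP cells. Within preparations it was higher with TGF-beta in 4 of 4 for Cre cells and 3 of 4 for GFP cells. The direction in preparation 4 rests on few counts: 6 with TGF-beta and 7 without in Cre cells, 14 and 12 in GFP cells. The change of Col8a2 was called with the block alone (log2 1.52 ± 0.28 in Cre cells, edgeR adjusted p = 0.000353, and 1.495 ± 0.286 in GFP cells, adjusted p = 0.000534). Without the block its log2 change was 1.62 ± 0.96 in Cre cells (adjusted p = 0.216) and 1.61 ± 0.97 in GFP cells (adjusted p = 0.233).

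Among the fibril-associated collagens, Col12a1 and Col14a1 moved in opposite directions. Col12a1 (ENSMUSG00000032332), whose protein is associated with tension-bearing tissue, had 480.2, 465, 493 and 48.4 CPM in Cre cells with TGF-beta, against 64.1, 161, 126 and 31.8 CPM without. GFP cells had 570.3, 645, 564 and 99.2 CPM with TGF-beta, against 98.1, 165, 182 and 46.2 CPM without. It was higher in 4 of 4 preparations in both kinds of cell, but preparation 4 with TGF-beta stayed within the range without it. The log2 fold change was 1.96 ± 0.71 in Cre cells (edgeR adjusted p = 0.0477) and 1.93 ± 0.71 in GFP cells (adjusted p = 0.0513), and with the block 1.79 ± 0.29 and 1.80 ± 0.29 (adjusted p = 0.000203 and 0.0002). The unblocked call in Cre cells was lost when any of 12 of the 16 libraries was left out. It was kept without Cre preparation 2 or without the preparation 4 library of GFP cells, of GFP cells with TGF-beta or of Cre cells with TGF-beta.

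Col14a1 (ENSMUSG00000022371), a collagen that binds fibril surfaces and decorin, had 45.9, 43.7, 42.7 and 15.4 CPM in Cre cells with TGF-beta, against 587, 484, 504 and 80.5 CPM without. GFP cells had 47.0, 50.8, 66.5 and 24.7 CPM with TGF-beta, against 751, 566, 651 and 89.9 CPM without. All libraries with TGF-beta lay below all without, by 11.2-fold in Cre cells and 10.9-fold in GFP cells in the fit (log2 -3.48 ± 0.66, edgeR adjusted p = 0.000984, and -3.45 ± 0.65, adjusted p = 0.0011). In preparation 4 the fall was smaller: the log2 difference was -2.38 in Cre cells and -1.86 in GFP cells, beside -3.47 to -3.67 and -3.29 to -4.00 in the other preparations. Per kilobase, Col12a1 stood at 1.55 to 5.70 times Col14a1 in Cre cells with TGF-beta and at 1.98 to 6.27 times in GFP cells with TGF-beta. Without TGF-beta the ratio of Col12a1 to Col14a1 was 0.0539 to 0.195 in Cre cells and 0.0645 to 0.253 in GFP cells. The order of these genes was therefore opposite with and without TGF-beta in every library.

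Col16a1 (ENSMUSG00000040690) varied least between preparations. It had 622, 682, 647 and 555 CPM in Cre cells with TGF-beta, against 502, 513, 555 and 418 CPM without. GFP cells had 650.5, 719, 667 and 514 CPM with TGF-beta, against 502, 529.7, 547 and 387 CPM without. It was higher in 4 of 4 preparations in both, by 1.26-fold in Cre cells (log2 0.33 ± 0.13, edgeR adjusted p = 0.0682) and 1.30-fold in GFP cells (0.38 ± 0.13, adjusted p = 0.0435). With the block the change was 0.34 ± 0.06 and 0.38 ± 0.06 (adjusted p = 0.000342 and 0.000138). The unblocked call in GFP cells was lost when any of 11 of the 16 libraries was left out. It was kept without preparation 3 or 4 of Cre cells, without GFP preparation 3, or without the preparation 4 library of either group with TGF-beta.

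The collagens of basement membrane zones were both lower with TGF-beta in 4 of 4 preparations. Col15a1 (ENSMUSG00000028339) had 1464, 1276, 1303 and 659 CPM in Cre cells with TGF-beta, against 2514, 1937, 2613 and 1209 CPM without. GFP cells had 1526, 1399.9, 1322 and 891 CPM with TGF-beta, against 2796, 1973, 2732 and 1271 CPM without. The first 3 preparations did not overlap, and preparation 4 without TGF-beta fell among the libraries with it. The change was not called without the block (log2 -0.82 ± 0.30, edgeR adjusted p = 0.0519, in Cre cells, and -0.77 ± 0.30, adjusted p = 0.0668, in GFP cells) and was called with it (-0.82 ± 0.10 and -0.73 ± 0.10, adjusted p = 4.51e-06 and 1.48e-05). Col15a1 shares 14 exonic bases with the antisense gene Gm12426, and whether strand was used in counting is not given in the sources used here. Col18a1 (ENSMUSG00000001435) had 28.4, 30.8, 24.1 and 20.5 CPM in Cre cells with TGF-beta, against 146, 104, 130.5 and 81.8 CPM without. GFP cells had 27.0, 33.8, 30.3 and 18.7 CPM with TGF-beta, against 163, 109.7, 138 and 77.3 CPM without. No library overlapped, preparation 4 included, and the fall was 4.46-fold in Cre cells and 4.45-fold in GFP cells (log2 -2.16 ± 0.25, edgeR adjusted p = 1.39e-05, and -2.15 ± 0.25, adjusted p = 1.48e-05). Endothelial cells also make these basement membrane collagens, and the endothelial marker sum given above was lower with TGF-beta as well; its part in these values was not tested.

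**Figure D3:**
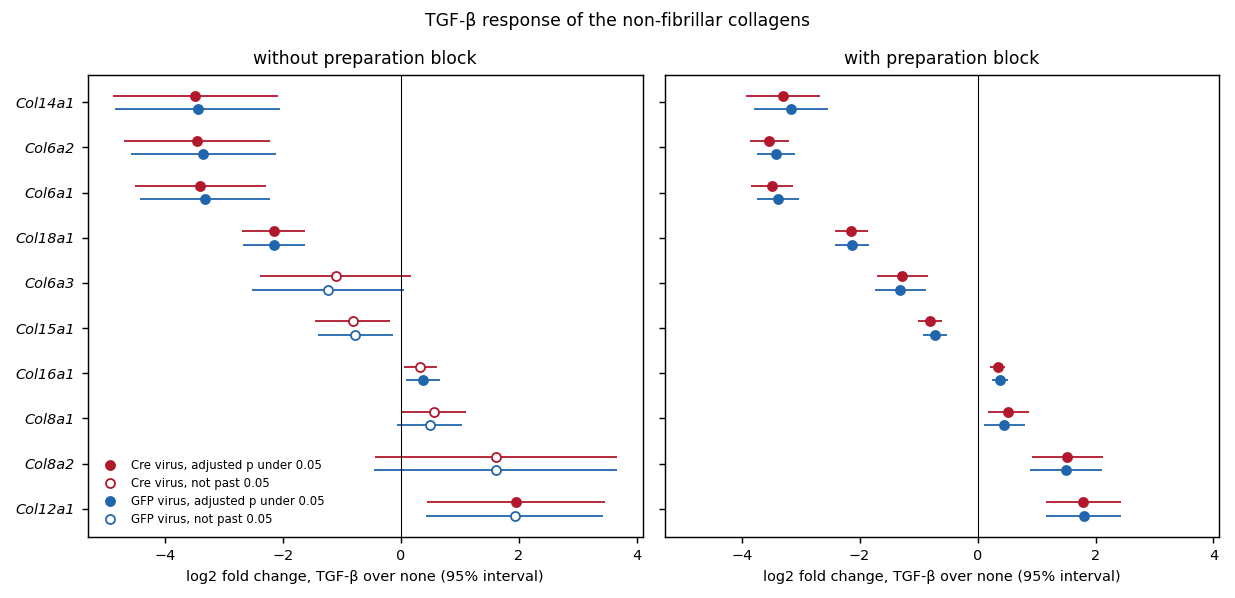
Log2 fold change with TGF-beta over none for each gene, with 95% intervals, in Cre and GFP cells, without (left) and with (right) the preparation as a block; filled points passed an adjusted p of 0.05. The estimates move little between the panels while the intervals narrow, so that 5 genes pass in each kind of cell on the left and 10 on the right.

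Set on the same scale per kilobase, the order of the genes changed with TGF-beta. Without TGF-beta, Col15a1 was the highest in all 8 libraries, with 399.9 ± 125 CPM per kb in Cre cells and 424 ± 139 in GFP cells. Col8a1 (194 ± 38.8 and 201 ± 34.8 CPM per kb) and Col6a1 (152 ± 57.1 and 168 ± 64.8) followed, and these neighbours changed places in 2 of the 8 libraries. Col6a1 also lay below Col16a1 in Cre preparation 4. Col6a2, Col16a1 and Col14a1 came next with overlapping ranges, with group means of 72.8 to 104 CPM per kb. Col18a1 stood at 24.2 ± 5.94 and 25.5 ± 7.71 CPM per kb, above Col14a1 in preparation 4 and below it in the others. Col6a3, Col12a1 and Col8a2 came last, in that order, in all 8 libraries. With TGF-beta, Col8a1 was the highest in all 8 libraries, at 287 ± 96.1 CPM per kb in Cre cells and 281 ± 74.3 in GFP cells, followed by Col15a1 (227 ± 68.5 and 248 ± 53.3) and Col16a1 (120.3 ± 10.3 and 123 ± 16.8). Col12a1 followed in 7 of the 8, at 32.3 ± 18.8 and 40.8 ± 21.7 CPM per kb. The 3 collagen VI chains, Col14a1 and Col18a1 then lay between 5.41 and 16.9 CPM per kb in their group means, and Col8a2 was the lowest in all 16 libraries. The 10 genes together took 0.375% ± 0.102 and 0.389% ± 0.0801 of the counts in Cre and GFP cells with TGF-beta, against 0.547% ± 0.144 and 0.583% ± 0.16 in Cre and GFP cells without.

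Cre against GFP virus is the contrast meant to remove Has2. None of the 10 genes was called in either medium in edgeR without the block, in edgeR with it or in DESeq2, and none had an unadjusted p under 0.05 in either medium in the edgeR fits. Of all tested genes 1.75% with TGF-beta and 1.11% without TGF-beta had such a p without the block, and 13.3% and 5.77% with it. The share of all tested genes called was 0% in both media without the block, and with the block 0.0654% with TGF-beta (0.0654% higher, 0% lower) and 0.17% without TGF-beta (0.164% higher, 0.00654% lower). In DESeq2 it was 0% with TGF-beta and 0.0196% without TGF-beta. With TGF-beta 6 of the 10 genes (Col6a1, Col6a2, Col6a3, Col12a1, Col14a1, Col15a1) were lower in Cre than in GFP cells in 4 of 4 preparations, and without TGF-beta these 6 and Col8a2 were. Over all tested genes 14.1% were lower in 4 of 4 preparations with TGF-beta and 13.3% without. None of the 10 was higher in Cre cells in 4 of 4 preparations. Ranges of Cre and GFP libraries overlapped for each of the 10 genes in both media, where 1.58% of all tested genes with TGF-beta and 1.47% without did not overlap.

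For each of the 10 genes, the estimated difference between Cre and GFP virus was smaller than that gene's own change with TGF-beta. The largest log2 estimates of the blocked fit were -0.44 (95% interval -1.04 to 0.16) for Col14a1 with TGF-beta and -0.43 (-1.08 to 0.21) for Col8a2 without. In the blocked fit the log2 difference of Col6a1 was -0.24 (95% interval -0.57 to 0.09) with TGF-beta and -0.13 (-0.44 to 0.19) without. That of Col6a3 was -0.33 (-0.76 to 0.10) with TGF-beta and -0.36 (-0.78 to 0.06) without, and that of Col12a1 was -0.42 (-1.03 to 0.18) and -0.41 (-1.03 to 0.20). The narrowest interval was that of Col16a1, -0.15 to 0.11 with TGF-beta and -0.11 to 0.15 without. Averaged over both media, 0.785% of all genes (0.654% higher, 0.131% lower) and none of the 10 were called with the block, and 0% of all genes without it. Col6a3 alone of the 10 had an unadjusted p under 0.05 there (log2 -0.35 ± 0.14, interval -0.65 to -0.05, edgeR adjusted p = 0.227), where 17.4% of all genes had; it was lower in 4 of 4 preparations of each medium. Without the block none of the 10 had such a p, where 3.04% of all genes did. Across 15259 genes the Cre difference fell with exon length (Spearman's rho -0.28 with TGF-beta and -0.38 without, blocked fit, a description over genes that are not independent). With trends on length and GC content removed, Col6a3 averaged -0.23 ± 0.13 (interval -0.50 to 0.05) and Col12a1 -0.30 ± 0.17 (interval -0.67 to 0.07). In that setting the averages of Col8a1, Col16a1 and Col18a1 were above 0 (0.05, 0.09 and 0.02), and none of these was called. The counts of genes lower in 4 of 4 preparations were taken without removing these trends.

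**Figure D4:**
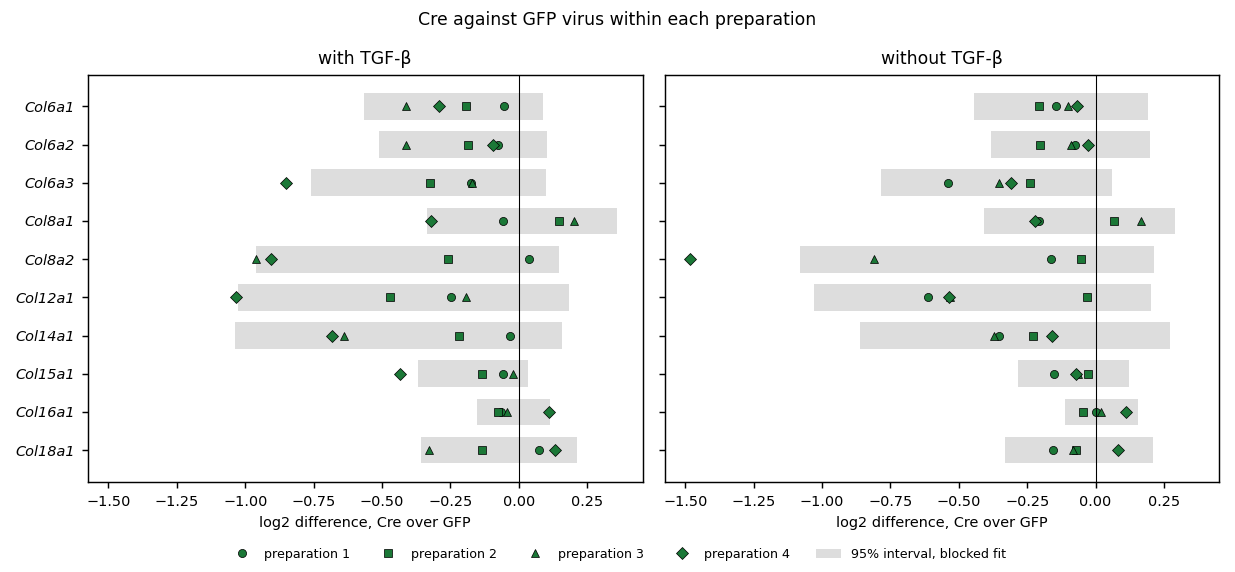
Log2 difference of Cre over GFP within each preparation (symbols), with the 95% interval of the blocked fit (grey), with TGF-beta (left) and without it (right). All grey intervals include 0; Col6a3 points lie left of 0 in 4 of 4 preparations in both panels.

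Whether the TGF-beta response differed between Cre and GFP cells was tested as an interaction. None of the 10 genes was called and none had an unadjusted p under 0.05 in edgeR with or without the block, none was called in DESeq2, and 0% of all genes were called in edgeR, where 0.589% without and 3.28% with the block had such a p. In the blocked fit the difference between the responses was -0.11 (95% interval -0.57 to 0.35) for Col6a1, -0.14 (-0.97 to 0.68) for Col14a1 and -0.01 (-0.40 to 0.38) for Col18a1. It was 0.03 (-0.57 to 0.63) for Col6a3 and 0.07 (-0.42 to 0.56) for Col8a1. Differences of this width were therefore not resolved with 4 preparations.

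Preparation 4 stood apart for these genes. It had the lowest value in 39 of the 40 combinations of gene and group, the exception being Col8a1 in GFP cells, and was lowest in all 4 groups for 9 of the 10 genes, as against 16.7% of all tested genes. Averaged over the 4 groups, the log2 difference between preparation 4 and the mean of the others was -3.43 for Col8a2, -2.32 for Col12a1, -2.08 for Col6a3, -2.05 for Col14a1, -1.82 for Col6a2 and -1.59 for Col6a1. It was smaller for Col15a1 (-0.90), Col18a1 (-0.64), Col8a1 (-0.59) and Col16a1 (-0.35), and its median was 0.01 over all tested genes. The gap was wider with TGF-beta for Col12a1, where the other preparations averaged 9.91 times preparation 4 in Cre cells and 5.98 times in GFP cells, against 3.68 times in Cre cells and 3.21 times in GFP cells without it. For Col14a1 it was wider without TGF-beta: 6.52 times in Cre cells and 7.30 times in GFP cells, beside 2.87 and 2.21 times in Cre and GFP cells with it. Preparation 4 also had the highest macrophage marker sum in each group (1091 CPM in Cre cells with TGF-beta, 997 in GFP cells with TGF-beta, 1754 in Cre cells and 1629.9 in GFP cells). Its pericyte and smooth muscle marker sum was the lowest in each group, at 78.0 CPM beside 137 to 154 in the others for Cre cells with TGF-beta, 100.2 beside 148 to 185 for GFP cells with TGF-beta, 95.2 beside 171 to 188 for Cre cells and 106.7 beside 193 to 219.7 for GFP cells. Summed over 10 TGF-beta response markers, Acta2 among them, preparation 4 was lowest in Cre cells with TGF-beta (17047 CPM beside 22724 to 25951). It was also lowest in GFP cells with TGF-beta (18860 beside 23047 to 27882), but not in either group without TGF-beta. Without TGF-beta its fibroblast sum was lowest, 7840 beside 9094 to 9261 in Cre cells and 7728 beside 9071 to 9311 in GFP cells. With TGF-beta that sum was lowest in GFP cells only. Across 15259 genes the difference of preparation 4 fell weakly with exon length (Spearman's rho -0.20). The part of any of these in the collagen values was not tested. Without preparation 4, all 10 genes were called with TGF-beta in both kinds of cell even without the block, a setting chosen after the data were seen, where 42.7% of all genes were called in Cre cells (20.2% higher, 22.5% lower) and 39.9% in GFP cells (18.6% higher, 21.3% lower). None of the 10 was called between Cre and GFP virus without preparation 4 in edgeR. Of all genes, 1.53% with TGF-beta and 0.751% without TGF-beta were called in the fit with the block. In the fit without the block the shares were 0% with TGF-beta and 0.112% without TGF-beta. The log2 changes with TGF-beta were then -3.32 ± 0.16 in Cre and -3.26 ± 0.16 in GFP cells for Col6a1, -1.005 ± 0.169 and -1.19 ± 0.17 for Col6a3, 2.04 ± 0.28 and 2.00 ± 0.28 for Col12a1, and -3.56 ± 0.15 and -3.59 ± 0.15 for Col14a1. Col8a1 gave 0.71 ± 0.17 in Cre and 0.62 ± 0.17 in GFP cells, and Col18a1 -2.19 ± 0.17 and -2.18 ± 0.17.

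**Figure D5:**
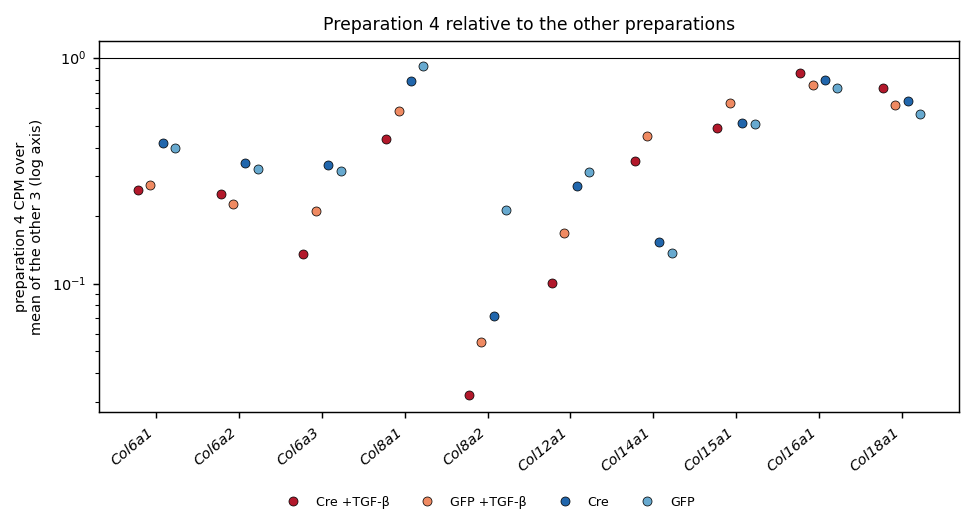
CPM of preparation 4 divided by the mean of the other 3 preparations for each gene and group, on a log axis; the line at 1 marks equality. All 40 points lie below 1, and the lowest is Col8a2 in the Cre group with TGF-beta, where the other preparations averaged 31.3 times preparation 4.

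Over the 16 libraries, the genes whose log2 CPM followed each collagen most closely were listed among 9950 genes with a mean of at least 5 CPM (9951 for Col8a2); these correlations describe libraries that share 4 preparations and a large TGF-beta response. Col6a1 was closest to Col6a2 (Pearson's r = 0.998), then to Epas1, a hypoxia-inducible transcription factor (0.998), and Arsg, a lysosomal sulfatase (0.995). Arsg (0.997) and Epas1 (0.995) also followed Col6a1 in the list for Col6a2. For Col6a3 they were Sptan1, Lamc1, the laminin γ1 chain, and Abcd3 (r = 0.985 to 0.989), with Col6a1 at 0.831. Col12a1 was closest to Ldlrad4, Papss2, which makes the sulfate donor of proteoglycans, and the fibrillar collagen Col11a1 (0.984 to 0.988), and Col14a1 to Tril, Ctdsp2 and Kank1 (0.984 to 0.989). Col18a1 was closest to Rcsd1, Sned1 and Pnmal2 (0.991 to 0.994), and Col15a1 to Cmklr1, the chemerin receptor, Osbpl1a and Adgre5 (0.968 to 0.978). Col16a1 was closest to Fkbp10, a collagen chaperone, Eln, which encodes elastin, and Tmem132a (0.963 to 0.970). Col8a1 was closest to Calu, Ccser2 and Rab11fip2 (0.962 to 0.978), and Col8a2 to Nfe2l1, Pcsk5 and Cd200 (0.963 to 0.970). Col12a1 and Col14a1 themselves gave r = -0.22, and Col12a1 and Col16a1 0.901.

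The other non-fibrillar collagens were a list of 23 genes, of which 13 passed the filter. With TGF-beta 1 of the 13 was higher and 4 were lower in Cre cells, and likewise 1 and 4 in GFP cells, with medians of -0.91 and -0.86. With the block 1 was higher and 7 lower in Cre cells, and 2 and 7 in GFP cells. Of all genes tested, 30.3% were called in Cre cells and 29.1% in GFP cells without the block, and 52.5% and 49.1% with it. Col7a1, the anchoring fibril collagen, averaged 149.6 CPM in Cre and 154 CPM in GFP cells with TGF-beta, against 16.3 CPM in Cre and 15.9 CPM in GFP cells without, and rose by 3.20 ± 0.23 in Cre and 3.28 ± 0.24 in GFP cells on the log2 scale. Col28a1, which has von Willebrand factor A domains as collagen VI does, averaged 4.11 CPM in Cre and 3.69 CPM in GFP cells with TGF-beta, against 29.9 and 30.2 CPM in Cre and GFP cells without (log2 -2.85 ± 0.44 and -3.05 ± 0.45). Col17a1 and Col23a1 fell in both kinds of cell, Col9a2 in Cre cells and Col4a3 in GFP cells, each with a group mean of at most 1.55 CPM. Of 11 fibrillar collagen genes 10 were tested, and 2 rose (Col5a2, Col11a1) and 3 fell (Col2a1, Col3a1, Col27a1) in Cre and in GFP cells. Col3a1 fell by 1.57 ± 0.51 in Cre cells and 1.51 ± 0.51 in GFP cells on the log2 scale. In Cre and then in GFP cells, Col1a1 (log2 0.75 ± 0.36 and 0.85 ± 0.36), Col1a2 (0.21 ± 0.31 and 0.25 ± 0.31) and Col5a1 (0.10 ± 0.39 and 0.09 ± 0.39) were not called without the block. With the block Col1a1 rose in both kinds of cell and Col1a2 in GFP cells. In that fit 4 fibrillar genes were higher and 3 lower in Cre cells, and 5 higher and 3 lower in GFP cells.

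Receptors and partners of these collagens were a list of 20 genes, all tested, of which 2 were higher and 10 lower with TGF-beta in Cre cells, and 1 higher and 9 lower in GFP cells. With the block 3 were higher and 12 lower in Cre cells, and 6 and 12 in GFP cells. The share of all genes called was 30.3% in Cre cells and 29.1% in GFP cells without the block. With the block it was 52.5% and 49.1%. Cspg4 (NG2), a proteoglycan receptor of collagen VI also used as a pericyte marker, went against most of the pericyte and smooth muscle list. Without the block it was the 1 gene of 8 called higher, and Kcnj8, Abcc9 and Notch3 were called lower in both kinds of cell (median log2 -0.77 in Cre and -0.58 in GFP cells). With the block Myh11 was called higher as well in both, and 5 of the 8 were lower in Cre cells and 4 in GFP cells. Cspg4 averaged 59.3 CPM in Cre and 69.2 CPM in GFP cells with TGF-beta, against 9.87 and 11.3 CPM in Cre and GFP cells without, and rose 6.03-fold in Cre and 6.14-fold in GFP cells. Antxr1, an anthrax toxin receptor that binds collagen VI, averaged 73.6 and 84.1 CPM in Cre and GFP cells with TGF-beta, against 169 and 196 CPM in Cre and GFP cells without (edgeR adjusted p = 0.0121 and 0.0111). Antxr2, its relative, which takes up collagen VI, fell by 0.45 ± 0.11 in Cre cells and 0.31 ± 0.11 in GFP cells on the log2 scale. The collagen receptor kinase Ddr2 fell by 0.74 ± 0.19 in Cre cells and 0.97 ± 0.19 in GFP cells. Itgb1, the integrin β1 chain, was called higher in Cre cells (log2 0.48 ± 0.16) and with the block in GFP cells (0.42 ± 0.10). Itga1 (log2 -0.90 ± 0.56 in Cre and -1.25 ± 0.56 in GFP cells) was called lower only with the block in both, and Itga11 (0.17 ± 0.44 in Cre and 0.20 ± 0.44 in GFP cells) higher only with the block in GFP cells. Tnxb, or tenascin X, which binds collagens XII and XIV, stood at 1.93 and 2.10 CPM in Cre and GFP cells with TGF-beta, against 15.1 and 16.9 CPM in Cre and GFP cells without, a fall of 7.82-fold in Cre and 8.08-fold in GFP cells. Decorin (Dcn) averaged 345 and 316 CPM in Cre and GFP cells with TGF-beta, against 879 and 850.5 CPM in Cre and GFP cells without. Biglycan (Bgn) was called only with the block (log2 -0.30 ± 0.07 in Cre and -0.26 ± 0.07 in GFP cells). No gene of these lists was called between Cre and GFP virus in edgeR with or without the block; at an unadjusted p under 0.05, averaged over both media with the block, there were 2 other non-fibrillar collagens, 4 fibrillar collagens and 7 receptors and partners, of 13, 10 and 20 tested, where 17.4% of all genes had such a p.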

How the data were processed

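RNA-seq of 16 libraries (4 groups of 4) was analysed from raw counts per Ensembl gene as deposited, made with HTSeq 0.10.0 after FastQC 0.10.1 on mm39/GRCm39, per the submitters' processing notes; no source used here gives an aligner or a strand setting. Per the labels, RNA was total RNA from Trizol with DNase treatment, and libraries were made with NEBNext Ultra II. Symbols were matched for 52081 of 55414 identifiers (99.9% of counts). Genes were kept by filterByExpr (minimum count 10, total 15), scaled by TMM and tested in edgeR 4.0.16 (R 4.3.3; robust quasi-likelihood, 1 mean per group, all 16 libraries), with Benjamini-Hochberg adjustment over 15285 genes; CPM are per-million counts of the TMM-scaled total. CPM per kb use the principal transcript of a GRCm38 annotation. DESeq2 1.42.0, other filters and size factors, left-out libraries and a preparation block were alternatives.

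Same-numbered libraries share a library-name code, so they are paired by the labels. Deviations from group means correlated at 0.323 to 0.838 over 24 same-numbered pairs, against -0.679 to 0.292 over 72 others (median -0.13). Deviations cancel out within a group, so the negative median of the others is partly built in. None of the 24 library pairs within a group, the 24 of 1 preparation across groups or the 72 others agreed within sampling noise. Preparations 1 and 4 are labelled male and 2 and 3 female, so the male and female preparations differ in source. No label says that preparations of the same sex came from separate animals. The p-values without the block therefore cover only the spread of the preparations, which includes sex and may otherwise be technical. That fit does not use the pairing. With the block they cover only the spread of differences within preparations, as the level of each preparation, sex included, is taken out. The biological coefficient of variation was 0.254 without and 0.123 with the block. The genes, the lists (named genes: the 10 collagens, fixed receptors, partners and fibrillar collagens, called non-fibrillar collagens, and the 3 closest correlates of each collagen) and the tests were chosen with earlier results of these data known, so no p-value here is independent support. A Has2 overexpression virus in the protocol was not analysed here.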

Additional observations from a re-analysis of the deposited data

Results flagged for a closer look

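In 5 of 40 combinations of gene and group, 1 library lay further from the rest than Dixon's 95% limit for 4 values, and each was preparation 4 with TGF-beta. Col6a3 had 10.9 CPM in Cre cells with TGF-beta and 19.7 CPM in GFP cells with TGF-beta. Col12a1 had 48.4 CPM in Cre cells with TGF-beta and 99.2 CPM in GFP cells with TGF-beta. Col14a1 had 15.4 CPM in Cre cells with TGF-beta. Chance alone marks about 1 in 20 groups, and the combinations share libraries. Preparation 4 was lowest in all 4 groups for 9 of the 10 genes, beside 16.7% of all tested genes. The cause was not tested.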

How the results depend on the processing

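With the preparation as a replicate block, 10 of the 10 genes were called with TGF-beta in both Cre and GFP cells, against 5 and 5 without it; the block changed no call between Cre and GFP virus or in the interaction. The block with GC and length trends removed also called 10 and 10; it moved the median of all genes up by 0.09 and 0.11 on the log2 scale, with 5300 genes higher and 3456 lower in Cre cells and 5204 and 3335 in GFP cells, against 3856 and 4174, and 3451 and 4047, with the block alone. With the block and 1 preparation left out, 9 and 9 were called without preparation 1, 2 or 3, and 10 and 10 without preparation 4, where 41.3% to 56.6% of all genes in Cre cells and 37.2% to 53.0% in GFP cells were called. Without preparation 4 and with no block, a setting added after the data were seen, 10 and 10 were called. Leaving out 1 library at a time gave 4 to 7 calls in each kind of cell. Of all genes, 22.4% to 31.7% were then called in Cre cells and 21.6% to 33.5% in GFP cells. DESeq2 gave 7 and 7, where 34.5% of all genes were called in Cre cells and 32.8% in GFP cells. No filter gave 4 and 4, where 13.4% and 12.8% of all genes were called, and Col12a1 and Col16a1 were not. Col6a1, Col6a2, Col14a1 and Col18a1 were called lower under each alternative run, and no TGF-beta estimate of the 10 genes changed sign in 280 and 280 values. Of the uncalled estimates, 20 of 280 changed sign between Cre and GFP virus with TGF-beta, 21 of 280 without, 28 of 270 averaged over both media and 78 of 270 in the interaction. Depth limited Col8a2 most, with 6 counts in its lowest library. All other choices tried left the counts of called genes within 1.5 times the values reported.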
